A study of Homo sapiens with 24 samples.

Results

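The 10 genes described here were read by symbol from a table of 35993 gene symbols, and all were found: the NF-kB feedback genes NFKBIA, TNFAIP3 and BIRC3, the chemokine genes CXCL8, CXCL1, CXCL2, CXCL3 and CCL20, the cytokine gene IL6 and the adhesion gene ICAM1. The set was chosen by symbol and selected on earlier results of the same libraries, in which TNFAIP3 and CXCL8 were among the genes that exceeded parental cells most in CD44 High or CD44v6. The 24 libraries come from J82 and RT-112, human lines of bladder cancer, and each line has 4 groups of 3 replicates. The parental cells are the controls. The other groups are newly established lines of the same name, with low CD44 receptor (CD44 Low), high CD44 receptor (CD44 High) or high receptor of the CD44 splice form that carries variant exon v6 (CD44v6). No treatment, dose or time is labelled for any group. The labels do not say how these lines were made or whether each is 1 clone, nor whether replicates are separate cultures, so p-values measure only the spread between these libraries.

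NF-kB is a family of dimeric transcription factors held in the cytoplasm by inhibitor proteins such as the product of NFKBIA. Signals from cytokine and pattern receptors lead to destruction of the inhibitor, and the freed factor then induces inflammatory genes together with genes that shut the signal off. NFKBIA and TNFAIP3 belong to the second kind: NFKBIA replaces the inhibitor, and TNFAIP3 encodes A20, a ubiquitin-editing enzyme that acts on the receptor complexes. BIRC3 encodes cIAP2, a ubiquitin ligase of those complexes that blocks cell death. The CXC chemokines among the 10 attract neutrophils, CCL20 attracts lymphocytes and dendritic cells, and IL6 is a general inflammatory cytokine. In bladder cancer, CXCL8 and IL6 are known as products of the tumour cells themselves.

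The promoters of these genes are among the parts of the genome where NF-kB is known to act on them. The promoters of 8 genes are shown, each with its stretch upstream of the transcription start. They were taken from RefSeq on GRCh38.p14, a later build than the GRCh37 of the counts, and all 10 genes were matched there. Capitals mark matches to the 3 motifs GGNNTTTCC, GGAANTTCC and TGANTCA, on either strand.
NFKBIA: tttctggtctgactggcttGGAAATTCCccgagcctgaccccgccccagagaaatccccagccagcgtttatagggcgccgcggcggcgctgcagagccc
TNFAIP3: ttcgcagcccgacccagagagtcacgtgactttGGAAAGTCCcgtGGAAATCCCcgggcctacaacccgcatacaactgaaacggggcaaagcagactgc
BIRC3: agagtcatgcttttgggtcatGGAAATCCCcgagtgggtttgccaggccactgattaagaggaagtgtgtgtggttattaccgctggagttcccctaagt
CXCL8: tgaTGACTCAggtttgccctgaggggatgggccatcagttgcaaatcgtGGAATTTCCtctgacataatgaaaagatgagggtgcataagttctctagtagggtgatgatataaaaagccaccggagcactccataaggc
CXCL1: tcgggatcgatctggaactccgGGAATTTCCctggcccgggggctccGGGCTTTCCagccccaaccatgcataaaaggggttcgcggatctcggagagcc
CXCL2: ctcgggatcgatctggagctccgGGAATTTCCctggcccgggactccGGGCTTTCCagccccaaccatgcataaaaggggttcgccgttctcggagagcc
CXCL3: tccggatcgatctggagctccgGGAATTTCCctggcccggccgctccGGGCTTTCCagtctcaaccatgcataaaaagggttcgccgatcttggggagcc
IL6: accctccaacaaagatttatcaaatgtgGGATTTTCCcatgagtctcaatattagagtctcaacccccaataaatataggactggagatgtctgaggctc

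These windows lie at chr14:35404750-35404849 (minus strand) for NFKBIA, chr6:137867159-137867258 (plus) for TNFAIP3, chr11:102317264-102317363 (plus) for BIRC3, chr4:73740429-73740568 (plus) for CXCL8, chr4:73869293-73869392 (plus) for CXCL1, chr4:74099196-74099295 (minus) for CXCL2, chr4:74038690-74038789 (minus) for CXCL3 and chr7:22727100-22727199 (plus) for IL6. Each ends at the base before the start, except that of BIRC3, which spans 220 to 121 bases upstream. CXCL1 and CXCL2 were the most alike, with 94.1% of aligned positions identical. CXCL1 and CXCL3 shared 90% and CXCL2 and CXCL3 89.1%. Within 250 upstream bases, GGNNTTTCC, most of the usual NF-kB letters, occurred in all 10 genes and in 5.48% of all 35116 promoters of that length. GGAANTTCC occurred in 6 (NFKBIA, CXCL8, CXCL1, CXCL2, CXCL3 and ICAM1) against 0.826% of all, and in each of the 6 it lies on a match to the other motif. The AP-1 type motif TGANTCA was found in CXCL8 alone among the 10, against 6.57% of all promoters. The genes were picked as NF-kB targets, so these shares describe the choice, and a match of letters is not a measured binding site.

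Levels are given in CPM, a count scaled for library size and composition (TMM), and the plot of levels by library shows all of them. The 2 lines differed first in which of the 10 genes they expressed at all. In J82, 9 of the 10 passed the filter on low counts and CCL20 did not. In RT-112, 5 passed (NFKBIA, TNFAIP3, BIRC3, CXCL8 and ICAM1), and no CXCL1, CXCL2 or CXCL3 count was found in any of the 12 libraries. A count of 0 allows a level of up to 0.129 to 0.176 CPM in the RT-112 libraries (3 counts, counting error only). Fewer expressing cells and less RNA per cell cannot be told apart in such bulk libraries.

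**Figure D1:**
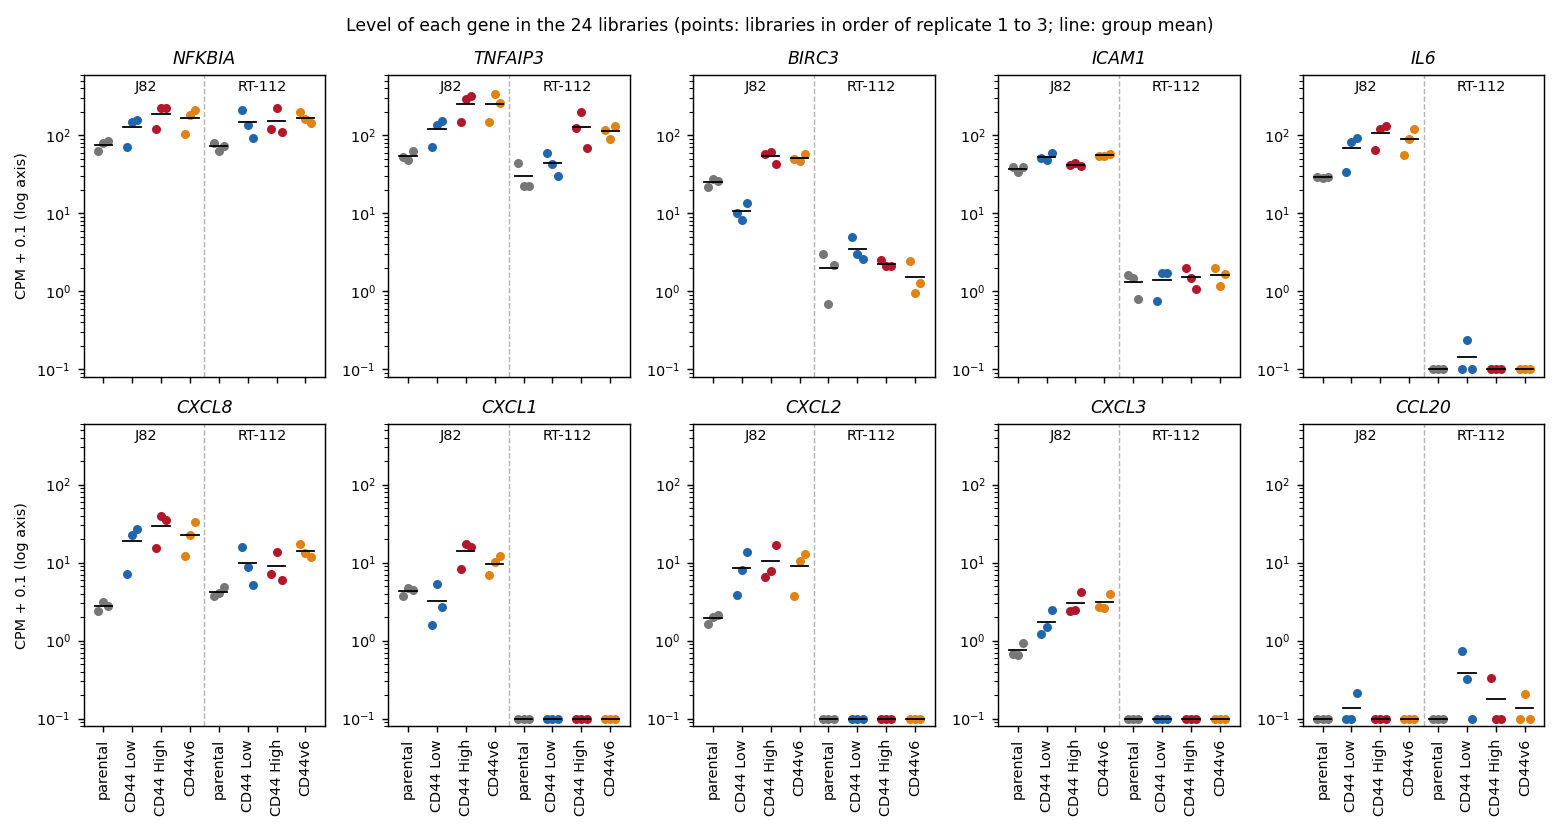
Level of each gene in every library, as CPM + 0.1 on a log axis, for J82 and RT-112 with points for replicates 1 to 3 of each group and a line at the group mean. CXCL1, CXCL2 and CXCL3 sit at 0 in all RT-112 libraries, and IL6 is above 0 in 1 RT-112 library.

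NFKBIA, which restores the cytoplasmic inhibitor, was the most abundant of the 10 per length in parental cells, at 31.6 CPM per kilobase of exon (GENCODE 29) in J82 and 30.3 in RT-112. In J82 its CPM in replicates 1, 2 and 3 was 62.1, 78.7 and 84.4 in parental cells, 71.2, 149 and 157 in CD44 Low, 120, 224 and 224 in CD44 High, and 104, 179 and 210 in CD44v6. All CD44 High and CD44v6 libraries lay above the parental ones, and CD44 Low overlapped them through its replicate 1. In RT-112 the 3 parental libraries held 79.3, 63.2 and 73.4 CPM, the CD44 Low libraries 214, 137 and 92.8, the CD44 High libraries 119, 221 and 111, and the CD44v6 libraries 198, 161 and 143. There every library of the 3 derived groups lay above every parental one. Ordered by mean over the 8 groups, each group overlapped the next.

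TNFAIP3, whose product A20 dampens the receptor signal, was at 52.2, 47.6 and 61.8 CPM in parental J82, 70.8, 134 and 153 in CD44 Low, 149, 288 and 319 in CD44 High and 148, 338 and 262 in CD44v6. The 3 derived groups lay above parental cells without overlap, and CD44 Low overlapped CD44 High through 1 library of each. In RT-112 it was at 44.5, 22.0 and 22.2 CPM in parental cells, 59.8, 42.7 and 29.8 in CD44 Low, 123, 196 and 68.6 in CD44 High and 116, 89.5 and 130 in CD44v6. Here CD44 High and CD44v6 lay above both other groups, while CD44 Low overlapped parental cells. Over all 8 groups the mean level ran from 252 CPM in J82 CD44 High to 29.6 in parental RT-112. The only gap between neighbours in that order fell between RT-112 CD44v6 and parental J82.

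BIRC3, the cIAP2 gene, was ordered differently in the lines. In J82 it was at 21.8, 27.2 and 25.9 CPM in parental cells, 10.1, 8.21 and 13.4 in CD44 Low, 57.4, 61.5 and 43.1 in CD44 High and 49.4, 46.8 and 56.7 in CD44v6. CD44 Low was below parental cells and CD44 High and CD44v6 were above them, with no overlap between these 3 levels. In RT-112 it was low throughout, at 2.95, 0.597 and 2.09 CPM in parental cells, 4.80, 2.88 and 2.49 in CD44 Low, 2.41, 2.01 and 2.0 in CD44 High and 2.31, 0.848 and 1.18 in CD44v6. The CD44 Low libraries of RT-112 were above its CD44 High and CD44v6 libraries, the opposite order to J82. The gap was narrow, with 2.49 CPM (46 counts) in CD44 Low replicate 3 against 2.41 CPM (41 counts) in CD44 High replicate 1. Neither RT-112 difference was called (CD44 High and CD44v6 against CD44 Low, edgeR adjusted p = 0.399 and 0.104). The share of all genes in that order without overlap is not given here.

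CXCL8 encodes the neutrophil chemokine interleukin 8. Its J82 values were 2.31, 3.07 and 2.67 CPM in parental cells, 7.13, 22.6 and 26.5 in CD44 Low, 15.1, 39.1 and 34.6 in CD44 High and 12.2, 22.6 and 32.8 in CD44v6. Each derived group was above the parental one, and the derived groups overlapped one another. In RT-112 it was at 3.63, 4.04 and 4.83 CPM in parental cells, 16.0, 8.78 and 5.04 in CD44 Low, 7.11, 13.7 and 5.85 in CD44 High and 17.3, 13.1 and 11.7 in CD44v6. Again no derived library fell to the parental range, and the nearest was CD44 Low replicate 3.

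The GRO chemokines CXCL1, CXCL2 and CXCL3, ligands of the same receptor CXCR2, had counts in J82 alone. CXCL1 was at 3.65, 4.66 and 4.35 CPM in parental cells, 1.5, 5.19 and 2.63 in CD44 Low, 8.31, 17.3 and 15.9 in CD44 High and 6.79, 10.1 and 12.1 in CD44v6. Its CD44 Low libraries straddled the parental ones, while CD44 High and CD44v6 were above both. CXCL2 was at 1.51, 1.92 and 2.04 CPM in parental cells, 3.73, 8.05 and 13.6 in CD44 Low, 6.37, 7.74 and 16.9 in CD44 High and 3.69, 10.4 and 12.9 in CD44v6. All 3 derived groups overlapped for CXCL2 and lay above parental cells. CXCL3 was at 0.579, 0.548 and 0.838 CPM in parental cells, 1.11, 1.4 and 2.41 in CD44 Low, 2.32, 2.35 and 4.13 in CD44 High and 2.57, 2.50 and 3.89 in CD44v6. Its derived libraries were above the parental ones too, and those of CD44v6 also above those of CD44 Low. The 3 transcripts are similar: 8.99% of the 50-base windows of CXCL2 occur in CXCL3 and 3.88% in CXCL1, so a share of their reads is uncertain between them.

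IL6 was at 28.7, 28.5 and 29.2 CPM in parental J82, 3 nearly equal libraries. It was at 33.9, 80.7 and 91.9 in CD44 Low, 65.1, 122 and 133 in CD44 High and 55.1, 88.2 and 121 in CD44v6, all above parental cells. In RT-112 it was at 0 in 11 of 12 libraries, with 3 counts in CD44 Low replicate 2. ICAM1, the endothelial and epithelial ligand of leukocyte integrins, was at 38.9, 33.4 and 39.0 CPM in parental J82, 51.4, 47.6 and 59.1 in CD44 Low, 41.3, 43.8 and 40.2 in CD44 High and 53.4, 54.7 and 58.2 in CD44v6. Its CD44 Low and CD44v6 libraries lay above all those of CD44 High. In RT-112 ICAM1 lay between 0.643 and 1.90 CPM and no group stood apart. CCL20, the chemokine for CCR6, was at 0 in 11 of 12 J82 libraries and 8 of 12 RT-112 libraries, and its highest value was 15 counts (0.643 CPM) in RT-112 CD44 Low replicate 1. On the opposite strand, annotated genes overlap TNFAIP3, IL6 and ICAM1, and whether counting used strand is not given in the sources used here.

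Parental J82 and RT-112 cells were compared to set the lines side by side. Of the 9 genes tested, 6 were called (edgeR adjusted p under 0.05), all higher in J82, where 62% of all genes tested were called and 31% were called higher. ICAM1 was higher by 4.96 on the log2 scale (SE 0.25, edgeR adjusted p = 2.19e-13) and BIRC3 by 3.76 (SE 0.35, adjusted p = 4.32e-09). IL6 was at least 169-fold higher, CXCL1 at least 24.8-fold, CXCL2 at least 10.7-fold and CXCL3 at least 3.85-fold, each set against 3 counts in an RT-112 parental library. TNFAIP3 (0.87, SE 0.39, adjusted p = 0.0598), NFKBIA (0.061, SE 0.33) and CXCL8 (-0.64, SE 0.53) were not called.

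The 4 CXC chemokine genes among the 10 sit in a single cluster on chromosome 4, where the RefSeq order runs RASSF6, CXCL8, CXCL6, PF4V1, CXCL1, PF4, PPBP, CXCL5, CXCL3, CXCL2, MTHFD2L. In RT-112, CXCL8 had 64 to 382 counts per library, while CXCL6, PF4V1, CXCL1, PF4, PPBP, CXCL5, CXCL3 and CXCL2 were at 0 in all 12. The flanking genes outside the chemokines were expressed, RASSF6 with 63 to 339 counts and MTHFD2L with 118 to 238. In J82 the 4 chemokines CXCL8, CXCL1, CXCL3 and CXCL2 had counts in every library, CXCL5 had 3 to 25 counts, and CXCL6 was at 0 in 9 of 12. RASSF6 was the reverse of RT-112 there, at 0 in 7 of 12 J82 libraries and at most 4 counts.

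CD44 High and CD44v6 against parental cells are the comparisons that entered the choice of genes, so their values are a description with no test. In J82 all 9 genes that passed the filter were higher in CD44 High and in CD44v6, and no library overlapped the parental ones. Of all genes, 14.7% and 13.3% were higher without overlap. The log2 differences in CD44 High and CD44v6 were 3.47 and 3.07 for CXCL8 (SE 0.52 for each), 2.50 and 2.29 for CXCL2 (SE 0.55), 2.23 and 2.21 for TNFAIP3 (SE 0.35), 2.15 and 2.18 for CXCL3 (SE 0.39) and 1.89 and 1.61 for IL6 (SE 0.36). They were smaller for CXCL1 (1.72 and 1.19, SE 0.38), NFKBIA (1.34 and 1.13, SE 0.32), BIRC3 (1.12 and 1.03, SE 0.17) and ICAM1 (0.17 and 0.58, SE 0.10). In RT-112, 3 of the 5 genes that passed the filter lay above parental cells without overlap in each comparison, against 9.46% and 16.1% of all genes. These were TNFAIP3 (2.12 and 1.88, SE 0.37), CXCL8 (1.08 and 1.71, SE 0.38) and NFKBIA (1.05 and 1.18, SE 0.28). RT-112 BIRC3 (0.20, SE 0.49, and -0.39, SE 0.50) and ICAM1 (0.23 and 0.30, SE 0.44) overlapped parental cells. Since the genes were selected on these comparisons, nothing is read from the counts of calls that follow, and the shares over all genes only stand beside them. The fit called 8 of the 9 genes in J82 CD44 High and 7 in CD44v6, all higher, where it called 2.94% and 2.6% of all genes and 1.71% and 1.86% higher. It called 1 of the 5 higher in either RT-112 comparison, where it called 0.511% and 0.614% of all genes and 0.249% and 0.288% higher. In J82 CD44v6 the count was 0 without parental replicate 1 or 2 and 4 without parental replicate 3, and in J82 CD44 High it was 3 to 5 without any parental replicate or CD44 High replicate 2 or 3. In RT-112 it was 0 without parental replicate 2 or 3, CD44 High replicate 1 or 2, or any CD44v6 replicate, in the comparison each belongs to. Both comparisons of a line share its 3 parental libraries.

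**Figure D2:**
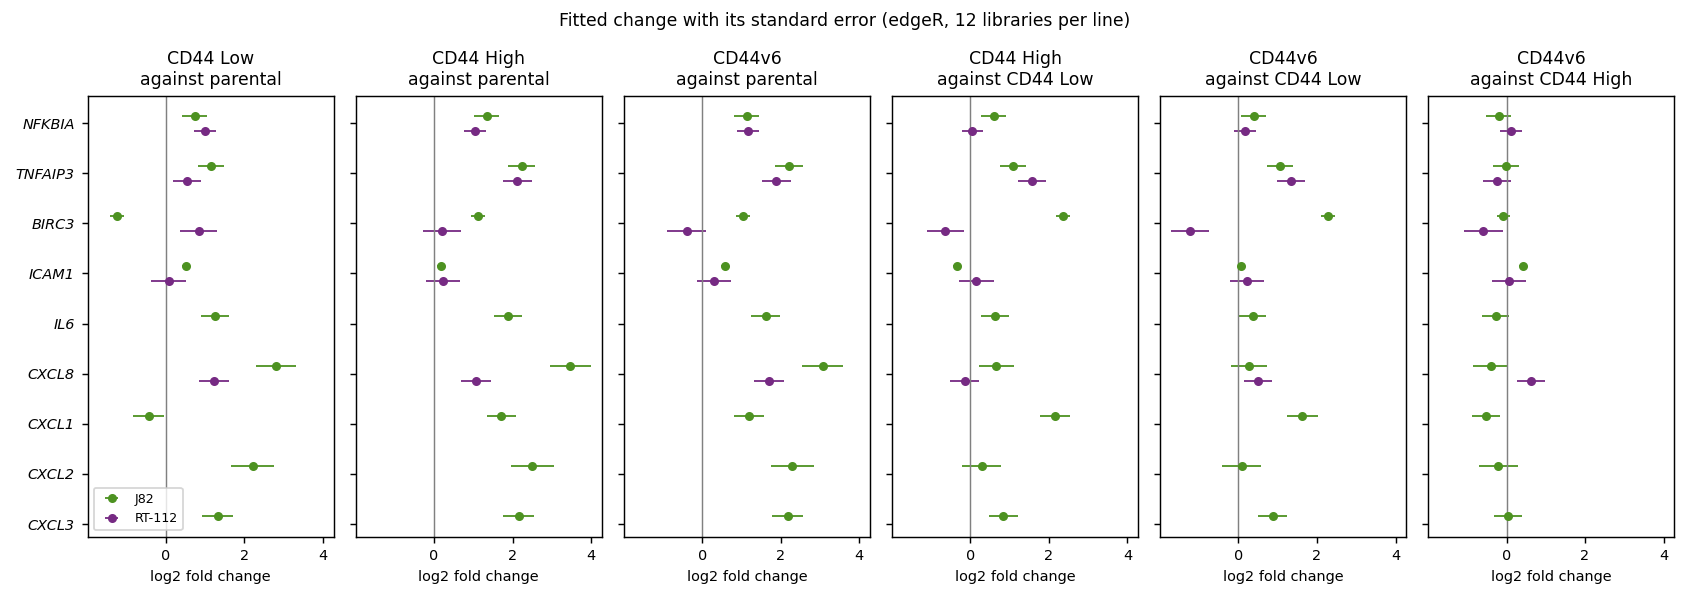
Fitted log2 fold change with its standard error for each gene that passed the filter, in the 6 comparisons of each line (green, J82; purple, RT-112). BIRC3 lies on opposite sides of 0 in the lines in CD44 Low against parental (-1.24 in J82, 0.83 in RT-112) and in both comparisons with CD44 Low. The RT-112 values of BIRC3 were not called in these fits.

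The CD44 Low lines carry less CD44 transcript than the parental cells and were compared with them next. The parental libraries also entered the choice of genes, so the p-values here are not free of that choice. In J82, 7 of 9 genes had a positive log2 difference, and 6 lay above parental cells without overlap, against 16.5% of all genes. CXCL8 rose by 2.80 (SE 0.52, edgeR adjusted p = 0.00797), CXCL2 by 2.21 (SE 0.55, adjusted p = 0.0349) and ICAM1 by 0.50 (SE 0.10, adjusted p = 0.0122). BIRC3 fell by 1.24 (SE 0.18, adjusted p = 0.00168), the one decrease called among the 9. The 4 calls compare with 5.34% of all genes called, 2.26% higher and 3.08% lower. TNFAIP3 (1.14, SE 0.34, adjusted p = 0.0719), IL6 (1.25, SE 0.36, adjusted p = 0.0638), CXCL3 (1.31, SE 0.40, adjusted p = 0.0786), NFKBIA (0.74, SE 0.32) and CXCL1 (-0.44, SE 0.39) were not called. DESeq2 called 7 of the 9, adding TNFAIP3 (adjusted p = 0.0471), IL6 (adjusted p = 0.0366) and CXCL3 (adjusted p = 0.04). TNFAIP3 and IL6 were also called by edgeR on the 2 groups alone (adjusted p = 0.0201 and 0.0298). The shares of all genes that DESeq2 and the fit on 2 groups called were not taken. CXCL2 lost its call without any 1 of the parental libraries or CD44 Low replicate 2 or 3 (adjusted p 0.0773 to 0.142). ICAM1 lost it without parental replicate 2 (adjusted p = 0.0815) and in the fit on all 24 libraries (adjusted p = 0.118). Without all J82 libraries numbered 1, a fit on fewer libraries, the adjusted p was 0.0694 for BIRC3 (log2 difference -1.30) and 0.205 for ICAM1. In RT-112, edgeR called 0 of the 5 genes in this comparison, where 3.2% of all genes were called. At an unadjusted p under 0.05 there were 2 of the 5, beside 2960 of all 15645 genes. Over the 12 RT-112 libraries NFKBIA differed by 1.0 (SE 0.28, adjusted p = 0.0769), CXCL8 by 1.22 (SE 0.38, adjusted p = 0.105) and BIRC3 by 0.83 (SE 0.48). DESeq2 called CXCL8 (adjusted p = 0.0208), and edgeR on the 2 groups alone called NFKBIA (adjusted p = 0.0248). Without CD44 Low replicate 3, edgeR called both NFKBIA (1.24, adjusted p = 0.024) and CXCL8 (1.53, adjusted p = 0.0284).

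CD44 High against CD44 Low sets the lines named for more and for less of the receptor side by side. The CD44 High and CD44v6 libraries entered the choice of genes, so p-values against CD44 Low are not free of it either. In J82, BIRC3 rose by 2.36 (SE 0.18, edgeR adjusted p = 2.67e-06) and CXCL1 by 2.15 (SE 0.39, adjusted p = 0.00235). Both kept their call in every fit that left out 1 library. TNFAIP3 rose by 1.08 (SE 0.34, adjusted p = 0.0451) and ICAM1 fell by 0.33 (SE 0.10, adjusted p = 0.0425). TNFAIP3 lost its call without CD44 Low replicate 1 or 2 or CD44 High replicate 2 or 3 (adjusted p 0.0799 to 0.157). ICAM1 lost its call without CD44 Low replicate 1 or 3 or any CD44 High replicate (adjusted p 0.0728 to 0.151). Both genes also lost it with no filter (adjusted p = 0.0614 for TNFAIP3 and 0.0786 for ICAM1) and on all 24 libraries (0.06 and 0.251). ICAM1 further lost it with upper-quartile scaling (0.0502) and on the 2 groups alone (0.064). CXCL8 (0.66, SE 0.45), CXCL2 (0.29, SE 0.49), CXCL3 (0.84, SE 0.37), IL6 (0.64, SE 0.35) and NFKBIA (0.60, SE 0.32) were not called. The 4 calls of 9 stand beside 15.7% of all genes, 8.83% higher and 6.9% lower. Same-numbered libraries deviated together in this comparison. With the replicate number as a block 7 of the 9 were called, adding NFKBIA (adjusted p = 0.00722), CXCL3 (adjusted p = 0.0421) and CXCL8 (adjusted p = 0.0479). The share of all genes that the block fit called was not taken. In RT-112, TNFAIP3 was the one gene called of 5, and rose by 1.57 (SE 0.36, adjusted p = 0.0120), where 16% of all genes were called and 9.01% called higher. It kept its call in all alternatives that were run. NFKBIA (0.054, SE 0.28), CXCL8 (-0.14, SE 0.36), ICAM1 (0.15, SE 0.44) and BIRC3 (-0.63, SE 0.47) were not called there.

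In J82 CD44v6 against CD44 Low, BIRC3 rose by 2.28 (SE 0.18, edgeR adjusted p = 5.53e-06) and CXCL1 by 1.63 (SE 0.39, adjusted p = 0.0184), 2 of 9 where 9.58% of all genes were called and 6.18% called higher. CXCL1 lost its call without CD44 Low replicate 1 or 3 or CD44v6 replicate 3 (adjusted p 0.0532 to 0.0605) and in a fit on the 2 groups alone (adjusted p = 0.078). TNFAIP3 was at 1.07 (SE 0.34, adjusted p = 0.0662), CXCL3 at 0.87 (SE 0.37) and the other 5 genes between 0.077 and 0.39. RT-112 TNFAIP3 rose by 1.34 (SE 0.36, adjusted p = 0.0263), 1 of 5 where 16% of all genes were called and 7.97% called higher. Its call was lost without CD44 Low replicate 2 or 3 or CD44v6 replicate 1 or 3 (adjusted p 0.0573 to 0.0904). RT-112 BIRC3 was at -1.22 (SE 0.49, adjusted p = 0.104), and the fit on all 24 libraries called it (-1.21, adjusted p = 0.0394). The comparisons with CD44 Low share its 3 libraries, so their values are not independent of each other.

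CD44v6 against CD44 High, the comparison for the splice form, called none of the genes. In J82 edgeR called 0 of the 9 and 0 of all 15951 genes. At an unadjusted p under 0.05 there were 1536 of all 15951 genes and 1 of the 9. That gene was ICAM1 (0.41, SE 0.10, adjusted p = 0.372), whose 3 CD44v6 libraries lay above all 3 CD44 High ones, as in 5.84% of all genes, and DESeq2 called it. The other J82 differences ran from -0.52 (SE 0.36) for CXCL1 to 0.028 (SE 0.35) for CXCL3. In RT-112 edgeR called 0 of the 5 and 0 of all 15645 genes, and DESeq2 called 0 of the 5. At an unadjusted p under 0.05 there were 0 of the 5 and 665 of all 15645 genes. The largest RT-112 difference was that of CXCL8, at 0.63 (SE 0.36).

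Whether the lines responded differently was tested for the 5 genes that passed the filter in both, as the J82 change minus the RT-112 change over all 24 libraries. BIRC3 differed in 3 of 4 contrasts. Its change in CD44 Low against parental was 2.13 lower in J82 on the log2 scale (-2.13, SE 0.48, edgeR adjusted p = 0.0270), its change in CD44 High against CD44 Low was 3.03 higher (SE 0.47, adjusted p = 0.000231) and that in CD44v6 against CD44 Low was 3.48 higher (SE 0.48, adjusted p = 8.42e-05). In these contrasts 1.06%, 10.7% and 7.52% of all 17438 genes were called, 0.757% lower in the first and 6.24% and 4.56% higher in the others. The first lost its call without J82 parental replicate 2 or 3, J82 CD44 Low replicate 1 or 2, RT-112 parental replicate 2 or 3, or RT-112 CD44 Low replicate 1 (adjusted p 0.0512 to 0.144). The other two were kept in all 12 fits that left out 1 library. TNFAIP3 was not called in any of the 4: its difference was 0.57 (SE 0.55) in CD44 Low against parental, -0.47 (SE 0.54) in CD44 High against CD44 Low and -0.28 (SE 0.54) in CD44v6 against CD44 Low. CXCL8 (1.55, SE 0.70, adjusted p = 0.32 in CD44 Low against parental), NFKBIA and ICAM1 were not called either. For CD44v6 against CD44 High, 0 of the 5 genes were called, where 0.00573% of all genes were called. At an unadjusted p under 0.05 there were 0 of the 5 and 1647 of all 17438 genes. In RT-112, BIRC3 never exceeded 112 counts in a library.

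Within groups, several of the genes deviated together from library to library. For each gene the deviation of log2(CPM + 0.5) from its group mean was taken, which gave 12 values per line. In J82 the 21 pairs among NFKBIA, TNFAIP3, CXCL8, CXCL1, CXCL2, CXCL3 and IL6 had a median Pearson r of 0.857, with a range from 0.348 to 0.985. CXCL8 and IL6 were the most alike pair (0.985). For NFKBIA and CXCL8, r was 0.978 and Spearman's rho 0.965, and r was 0.955 without the 2 libraries farthest from the median. BIRC3 had a median r of 0.0953 over its 8 pairs in J82, and the 8 pairs of ICAM1 had a median of 0.294. In RT-112, NFKBIA and CXCL8 had an r of 0.954 and a rho of 0.909 (r 0.885 without 2 libraries), TNFAIP3 and NFKBIA an r of 0.761 and TNFAIP3 and CXCL8 an r of 0.629. There BIRC3 had an r of 0.514 with TNFAIP3, 0.485 with NFKBIA and 0.357 with CXCL8 (0.699, 0.531 and 0.601 without 2 libraries). These are descriptions over 12 libraries that share group means and scaling, and they carry no p-value.

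**Figure D3:**
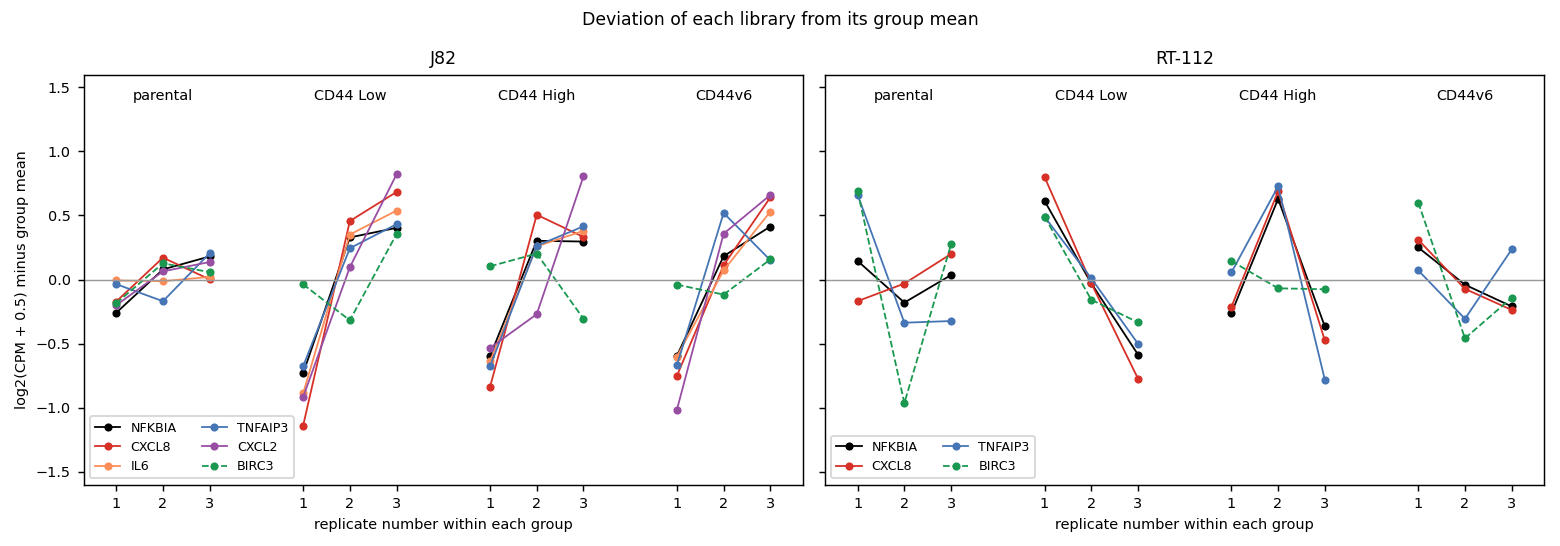
Deviation of log2(CPM + 0.5) from the group mean in each library, by replicate number, with lines that join the values of 1 gene in 1 group and no meaning in their order. Replicate 1 is low for NFKBIA, CXCL8, IL6, TNFAIP3 and CXCL2 in the 3 derived J82 groups, where BIRC3 (dashed) is near or above its group mean in replicate 1.

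J82 replicate 1 was the lowest of the 3 for 7 of the 9 genes in each of CD44 Low, CD44 High and CD44v6, and for 5 of the 9 in parental cells. The median ratio of the highest to the lowest replicate was 2.21, 2.03 and 2.02 in the 3 derived groups against 1.30 in parental cells. In RT-112, replicate 3 was the lowest for 4 of 4 genes with enough counts in CD44 Low and in CD44 High. Without all J82 libraries numbered 1, an alternative added after the data were seen, the calls were 5 in CD44 Low against parental, 4 in CD44 High against CD44 Low and 3 in CD44v6 against CD44 Low. Immediate-early genes, which respond within minutes to many stimuli, moved with the derived groups: in J82 CD44 Low against parental, 12 of 17 were called higher and 0 lower, with a median of 1.30, where 2.26% of all genes were called higher. Their summed level was 1017 to 1092 CPM in parental J82 libraries and 1793 to 2242 CPM in the derived ones. In RT-112, 3 of 17 were called higher in the same comparison, where 3.2% of all genes were called, and the sums were 1449 to 1680 and 1871 to 2391 CPM. Replicate 1 was the lowest for 10 of 15 immediate-early genes in J82 CD44 Low and for 13 of 17 in CD44v6. In CD44 High, replicates 1 and 2 were each the lowest for 8 of 16, and in parental J82 replicate 2 was the lowest for 11 of 15. Their part in the results on the 10 genes was not tested.

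To show which other genes had a similar pattern, the correlation of log2 CPM with TNFAIP3 and with CXCL8 over the 12 libraries of each line was ranked by the smaller of its 2 values for 8731 genes. The genes most like TNFAIP3 were IER3, an early response gene (r 0.978 in J82 and 0.936 in RT-112), PLK3, a stress-responsive kinase (0.894 and 0.895), SOCS3, an inhibitor of cytokine signalling (0.887 and 0.876), SLC20A1, a phosphate transporter (0.906 and 0.870), and ZC3H12A, an RNase that degrades cytokine transcripts (0.957 and 0.867). Those most like CXCL8 were KLF10, a zinc finger factor (0.945 and 0.896), DUSP5, a phosphatase of ERK (0.884 and 0.926), MAFF, a small MAF factor (0.957 and 0.875), NFKBIZ, an atypical inhibitor protein (0.928 and 0.857), and RIOK3, a kinase (0.904 and 0.852). IER3 in J82 went from 46.4 ± 3.48 CPM (SD, n = 3) in parental cells to 78.1 ± 25.1 in CD44 Low, 146 ± 57.9 in CD44 High and 131 ± 36.3 in CD44v6. In RT-112 its means were 101 ± 8.36, 107 ± 26.7, 167 ± 55.3 and 173 ± 23.7 CPM in the same order. These correlations include the differences between groups, so they carry no p-value.

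The wider pathway was read from 7 lists with 136 genes, all present in the table, in CD44 High against CD44 Low. Each count of calls below stands beside 8.83% of all genes called higher and 6.9% lower in J82, and 16% called in RT-112, 9.01% higher. Of the 14 NF-kB subunits and kinases, edgeR called 0 in J82, with 4 at an unadjusted p under 0.05, and 0 in RT-112, with 2. Of all genes, 4838 of 15951 in J82 and 4832 of 15645 in RT-112 had an unadjusted p under 0.05. The medians of the 14 were 0.099 and -0.0014 on the log2 scale. NF-kB inhibitors and adaptors had 24 of 25 genes tested in each line. In J82, 7 were called higher and 1 lower, with a median of 0.13 against -0.016 for all genes. IRAK2, a kinase of interleukin 1 receptors, rose by 1.42 (SE 0.16, edgeR adjusted p = 5.56e-05), NFKBIE, another inhibitor of the NFKBIA family, by 1.19 (SE 0.20, adjusted p = 0.00145) and TRAF3, an adaptor, by 0.57 (SE 0.093, adjusted p = 0.00119). TAX1BP1, an A20 partner, fell by 0.29 (SE 0.081, adjusted p = 0.0292) in J82 and by 0.49 (SE 0.14, adjusted p = 0.0333) in RT-112. The remaining calls in J82, named after their values were seen, were BIRC2, TNIP1, TRAF1 and IRAK1. BIRC2, the cIAP1 gene related to BIRC3, was at 44.1 ± 1.84 CPM in J82 CD44 Low and 86.2 ± 13 in CD44 High (SD, n = 3), and its change differed between the lines by 1.30 (SE 0.20, adjusted p = 0.00016). RT-112 had 2 inhibitors and adaptors higher, TRAF5 (0.68) and OTULIN (0.24), and 2 lower, TAX1BP1 and TNIP2 (-0.37), 4 of 24 tested, a share near the 16% of all genes.

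**Figure D4:**
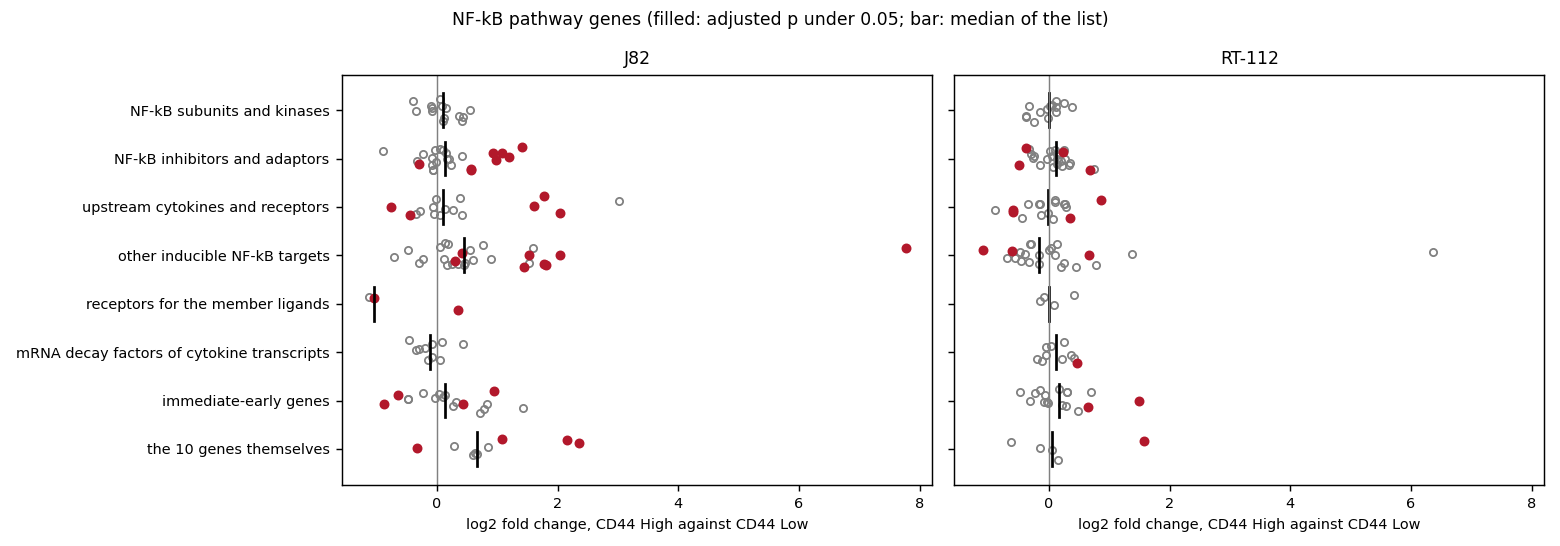
Log2 fold change of CD44 High against CD44 Low for each tested gene of the 7 pathway lists and of the 10 genes themselves, with filled points for adjusted p under 0.05 and a bar at the median. In J82, 7 inhibitors and adaptors and 8 other inducible targets are called higher; the point far to the right in J82 is CSF2, at 0 in all CD44 Low libraries, so its position is no measured size, and the same holds for MMP9 in RT-112.

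Among upstream cytokines and receptors, 16 of 25 were tested in J82, where 3 were called higher and 2 lower beside 15.7% of all genes called. CD40, a TNF receptor family member, rose by 2.04 (SE 0.28, edgeR adjusted p = 0.000346) and IL1B, an interleukin 1 ligand, by 1.77 (SE 0.42, adjusted p = 0.0125). TNFRSF21 fell by 0.76 (SE 0.13, adjusted p = 0.00181) and IL1RAP, the interleukin 1 co-receptor, by 0.45 (SE 0.13, adjusted p = 0.0338). IL1A, the other interleukin 1 ligand, was called in both lines and in both comparisons with CD44 Low. It rose in CD44 High by 1.61 (SE 0.25, adjusted p = 0.000868) in J82 and by 0.87 (SE 0.24, adjusted p = 0.0268) in RT-112, and in CD44v6 by 1.36 and 0.95. Its J82 mean was 4.79 ± 1.05 CPM in CD44 Low and 14.6 ± 4.97 in CD44 High, and its RT-112 means were 3.47 ± 0.715 and 6.20 ± 0.843 (SD, n = 3). In RT-112, 17 were tested, IL1A and IL18 (0.35) were called higher and TNFSF15 (-0.60) and TNFRSF1A (-0.60) lower. TNF, the classic inducer, named after its values were seen, reached at most 2 counts in any J82 library and 3 in any RT-112 library.

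Other inducible NF-kB targets had 27 of 35 genes tested in J82, with 8 called higher, 0 lower and a median of 0.45. CSF2, which encodes GM-CSF, was at 0 in all 3 CD44 Low libraries and between 0 and 50 counts in CD44 High, a mean at least 8.20-fold higher against 3 counts per library. With CSF2 at that bound the median is the same. CCL5, a T cell chemokine, rose by 2.03 (SE 0.20, edgeR adjusted p = 1.97e-05), from 21.1 ± 5.12 to 85.7 ± 1.46 CPM (SD, n = 3). BCL2L1 (0.30) and SDC4 (0.42) were the smallest of the called increases. In RT-112, 23 were tested, 1 was called higher (IER3, 0.67) and 2 lower (LCN2, -1.09, and TNFAIP2, -0.61), with a median of -0.16. The median for all genes was -0.016 in J82 and 0.016 in RT-112. The lists were chosen with results of these data known, and their counts describe them only.

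Receptors for the 10 genes' ligands were mostly silent. Of 10 listed, 3 were tested in J82 and 4 in RT-112. IL6R, the IL6 receptor, fell by 1.05 in J82 (SE 0.22, edgeR adjusted p = 0.0071), from 6.22 ± 1.06 CPM in CD44 Low to 2.99 ± 0.333 in CD44 High, and its signalling partner IL6ST rose by 0.35 (SE 0.081, adjusted p = 0.0114). CXCR1 and CCR6 had no count in any library, and CXCR2 none in J82 and at most 20 counts in RT-112 (named after their values were seen). Of 10 factors of cytokine mRNA decay, edgeR called 0 in J82. There 1 of the 10 had an unadjusted p under 0.05, beside 4838 of all 15951 genes. In RT-112 edgeR called KHSRP higher (0.47, SE 0.11, adjusted p = 0.0131). In the same J82 comparison 4 of the 17 immediate-early genes were called: FOSL1 (0.95) and FOSL2 (0.43) rose, and JUND (-0.88) and MYC (-0.65) fell. In RT-112, FOSL1 (1.5, SE 0.20, adjusted p = 0.000537) and FOSB (0.65) rose. In CD44v6 against CD44 Low, 9.58% of all genes were called in J82, 6.18% higher, and 16% in RT-112, 7.97% higher. Beside these shares, J82 had 7 of 24 inhibitors and adaptors and 5 of 27 other targets higher and 0 lower. It had 4 of 16 upstream genes higher and 1 lower, and 0 of 14 subunits and kinases called. RT-112 had 3 of 24 inhibitors and adaptors, 2 of 23 other targets and 2 of 17 upstream genes higher, with 2 lower in each. Of its 14 subunits and kinases, 1 was called higher and 2 lower. Immediate-early genes had 1 of 17 higher and 2 lower in J82, and 3 higher and 0 lower in RT-112. TRAF3 rose in both lines, by 0.55 and 0.37.

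The libraries held 16752825 to 24419670 counts. CD44 itself was at 397 to 489 CPM in parental J82 libraries, 254 to 309 in CD44 Low, 708 to 764 in CD44 High and 612 to 1072 in CD44v6. In RT-112 it was at 294 to 347, 120 to 152, 351 to 491 and 378 to 516 CPM. Both lines had less of it in CD44 Low than in each other group (edgeR adjusted p at most 0.0329), whereas in RT-112 it was not called in CD44 High (0.41, SE 0.15, adjusted p = 0.272) or CD44v6 (0.46, SE 0.15, adjusted p = 0.163) against parental cells. Counts per gene do not separate CD44v6 from other CD44 transcripts. Of 8 leukocyte markers, 1 reached a mean of 1 CPM in each line: CD68, which was at 141 CPM in J82 and 11.2 in RT-112. The pan-leukocyte marker PTPRC was at 0.0222 CPM in J82 and 0 in RT-112. RT-112 expressed 7 of 8 urothelial and 8 of 8 epithelial markers at 1 CPM or more, whereas J82 reached 2 and 6. The 6 in J82 include EPCAM and CDH1, whose mean levels were far below those in RT-112. KRT5, KRT13 and UPK2 were at 0 in J82 only, and UPK3A was at 0 in both lines. Of 6 fibroblast and stromal markers, J82 reached that level for 5 and RT-112 for 2. Of 4 mesenchymal markers, J82 reached it for 4 and RT-112 for 3.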

How the data were processed

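Total RNA from 24 samples went to a commercial sequencing service, per the labels' protocols. What the authors deposited is a single matrix of raw counts by gene symbol, and HISAT2, StringTie and GRCh37 are named, without role or version, in the submitters' processing notes. The annotation and the use of strand in counting are not given in the sources used here. Columns were assigned to samples through the titles, with 0 left unmatched.

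The counts went into edgeR 4.0.16 under R 4.3.3. Genes were filtered with filterByExpr, libraries scaled with TMM, and quasi-likelihood F-tests (glmQLFit, glmQLFTest) were run in each line over 12 libraries, with no term beside group (15951 genes in J82, 15645 in RT-112, common biological coefficient of variation 0.183 and 0.152). Contrasts across lines used all 24 libraries (17438 genes). P-values are two-sided and adjusted by Benjamini-Hochberg over all genes tested, with calls at an adjusted p under 0.05. CPM were scaled with TMM over all 24 libraries. The genes and lists were chosen with earlier results of these data known, and no p-value is adjusted over them alone. The comparisons all share libraries with the 4 that entered the choice of genes, so their p-values are not free of that choice.

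Named genes are the 10; CD44; per list and line the 2 highest and 2 lowest changes among genes called in CD44 High against CD44 Low; list genes called alike in both lines; and the 5 genes most like TNFAIP3 and CXCL8 (average log2 CPM of at least 3). Others are said to be named after their values were seen.

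No 2 replicates agree within sampling noise (chi-square per degree of freedom 6.42 to 63.7 over 24 pairs), and for genes with few counts both counting and replicate error limit the precision. Groups share replicate numbers 1 to 3, whose meaning the labels do not give. Deviations of same-numbered libraries correlated over 0.1 in every pair only for CD44 High against CD44 Low in J82 (0.16, 0.32 and 0.32 over 9868 genes with average log2 CPM of at least 3), so this pairing comes from the data. Over all genes tested its smallest correlation was 0.038, and J82 CD44v6 against CD44 High was the comparison with all over 0.1.

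Alternatives were median-of-ratios and upper-quartile scaling, a filter left out or set at a mean of 50 counts, a replicate block, fits on the 2 groups or on all 24 libraries, DESeq2 1.42.0, and leaving out each library. The steps were tested on simulated data. Figures were drawn with matplotlib 3.10.9.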

Additional observations from a re-analysis of the deposited data

Results flagged for a closer look

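BIRC3 changed differently in the 2 lines in 3 contrasts, by the test of the difference itself (edgeR quasi-likelihood F-test over 24 libraries, J82 change minus RT-112 change). In CD44 Low against parental the difference was -2.13 on the log2 scale, beside changes of -1.24 in J82 and 0.83 in RT-112. This contrast kept its call in 5 of 12 fits that left out 1 library. In CD44 High against CD44 Low it was 3.03, beside 2.36 in J82 and -0.63 in RT-112. In CD44v6 against CD44 Low it was 3.48, beside 2.28 in J82 and -1.22 in RT-112. These 2 kept their calls in all 12 such fits. In the 3 contrasts 1.06%, 10.7% and 7.52% of all genes were called. In the fit on the 12 RT-112 libraries its changes had SE 0.48, 0.47 and 0.49, and none was called (edgeR adjusted p = 0.376, 0.399 and 0.104). The changes within a line come from separate fits on its own 12 libraries, so they do not subtract exactly to the differences. The 3 contrasts share the CD44 Low libraries, and BIRC3 was at most 4.80 CPM in any RT-112 library.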

How the results depend on the processing

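Counts of the 10 genes called, beside the reported count, moved as follows. The share of all genes called was not taken for these alternatives, so added calls are not read as a result on the 10. The genes were selected on CD44 High and CD44v6 against parental, so nothing is read from the counts in those comparisons, kept or lost. With a replicate block the count in J82 went from 4 to 8 in CD44 Low against parental (adding TNFAIP3, IL6, CXCL3 and NFKBIA, adjusted p 0.011 to 0.0207), from 4 to 7 in CD44 High against CD44 Low, from 2 to 4 in CD44v6 against CD44 Low, and in RT-112 CD44v6 against CD44 Low from 1 to 2 (adding BIRC3, adjusted p = 0.0437); in no other comparison did the block move the count by over 1.5 times. DESeq2 gave 7 in J82 CD44 Low against parental, 1 in J82 CD44v6 against CD44 High, 1 in RT-112 CD44 Low against parental and 3 in RT-112 CD44v6 against parental. Fits on the 2 groups alone gave 1 in J82 CD44v6 against CD44 Low, and in RT-112, against parental, 1 in CD44 Low, 0 in CD44 High and 3 in CD44v6. With no filter there were 2 for CD44 High against CD44 Low in J82 and 0 in RT-112 CD44v6 against parental. The fit on all 24 libraries gave 2 in J82 CD44 High against CD44 Low, where TNFAIP3 (adjusted p = 0.06) and ICAM1 (0.251) lost their call, and 2 in RT-112 CD44v6 against CD44 Low. Without all J82 libraries numbered 1, added after the data were seen, there were 4 in J82 CD44v6 against parental. Leaving out 1 library at a time gave, in J82 against parental, 2 to 6 in CD44 Low, 3 to 8 in CD44 High and 0 to 7 in CD44v6, and, against CD44 Low, 2 to 3 in CD44 High and 1 to 3 in CD44v6. It gave 6 to 7 between the parental lines. In RT-112 against parental it gave 0 to 2 in CD44 Low, 0 to 1 in CD44 High and 0 to 1 in CD44v6, and 0 to 1 in CD44v6 against CD44 Low. For the difference between lines in CD44 Low against parental it gave 0 to 1. No value called in either fit changed sign under any alternative, whereas 27 of 113 values of single genes changed sign in 56 fits where they were called in neither, 55 of them with 1 library left out. In those fits, groups of 2 libraries are assumed to vary like the others. Depth limits CCL20, and CXCL1 to CXCL3 and IL6 in RT-112, which were at or near 0 counts.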
